A study of Homo sapiens with 6 samples.

Results

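Guidance genes encode the secreted and membrane-bound cues, and their receptors, that were first described as steering growing axons. Here they were the protein-coding genes whose symbols name an Eph receptor, an ephrin, a class 3 to 7 semaphorin, a plexin, a neuropilin, a netrin, an UNC5 receptor, DCC, neogenin (NEO1), a Slit or a Robo. The choice used gene names only, was made with earlier results of these data known, and gave 72 of the 58735 genes in the table. They were examined in NCI-N87, an established gastric carcinoma cell line, by RNA-seq of 3 libraries of cells labelled shNC and 3 libraries of cells labelled shScamp1. The labels give the genotype of the former as control and that of the latter as SCAMP1 knockdown; the study names these populations shCtrl and shS1#1. The shNC cells carried the empty lentiviral vector and the shScamp1 cells the same vector with an shRNA against SCAMP1, a membrane protein of vesicles that takes part in endocytosis. Both populations were exposed to virus for 24 h, selected with puromycin (2 μg/ml) and harvested at about 80% confluence. The knockdown libraries come from populations with a single shRNA, so that an effect of lower SCAMP1 and an effect of this shRNA sequence on other transcripts cannot be told apart. The replicates are labelled biological, but no source used here says whether they came from separate infections, so that p-values measure the spread between these libraries.

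Eph receptors are receptor tyrosine kinases that bind ephrins on neighbouring cells, with the A receptors mostly binding the lipid-anchored ephrin-A ligands and the B receptors the transmembrane ephrin-B ligands. Semaphorins signal through plexins, and the secreted class 3 members mostly need a neuropilin as coreceptor. Netrins bind DCC, neogenin and the UNC5 receptors, and Slits bind Robos. In epithelia such as that of the gut these systems are known for setting cell position, boundaries between cells and cell adhesion, mainly by acting on small GTPases and the actin cytoskeleton.

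The libraries held 14311769 to 15988700 reads on genes. SCAMP1 was at 11.5 to 12.6 FPKM in shNC and 1.37 to 1.99 FPKM in shScamp1 libraries, an 86% lower mean. FPKM is the read count of a gene scaled to its length and to the depth of the library, so that it can be compared between genes. In bulk RNA, fewer cells with a transcript and less of it per cell cannot be told apart. The shScamp1 replicate 2 library stood apart. Its mitochondrial reads made up 9.21% of reads against 6.09% to 6.78% in the other libraries, and its difference from the other libraries of its group had an SD over genes of 0.71 on the log2 scale against 0.53 to 0.61 for the others. Epithelial identity was clear, with EPCAM at 153 FPKM and KRT8 at 1530 FPKM in shNC cells, although TFF1 was at 0 and MUC1 at 0.892 FPKM. The epithelial list summed to 5740 to 6030 FPKM in shNC and 9670 to 10600 FPKM in shScamp1 libraries. Much of these sums was KRT8, KRT18 and KRT19, with means of 1530, 875 and 1690 FPKM in shNC cells. In shScamp1 cells these means were 3000, 2000 and 2840 FPKM. By limma 7 of the 11 tested genes of the list were higher, against 8.82% of all genes tested. EPCAM, CLDN7, ERBB2 and MUC1 did not pass. The part of this in the results was not tested. Lists for neurons and glia, endothelium, fibroblasts and smooth muscle, and leukocytes each summed to at most 6.5 FPKM in any library, and of these lists 1 gene was called. This was ESAM of the endothelial list, with a mean of 1.37 FPKM in shNC and 2.11 FPKM in shScamp1 libraries (limma adjusted p = 0.0453). EGFL7 of the same list was at 3.54 and 2.79 FPKM (limma adjusted p = 0.0883). VWF, at 0.172 and 0.444 FPKM without overlap, lay under the limit for testing, and the defining endothelial genes PECAM1, KDR and CDH5 had means of at most 0.042 FPKM in either group.

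Of the 72 guidance genes, 41 had a mean of at least 0.5 FPKM and were tested, 24 had reads but lay under this limit, and 7 had no read in any library. The tested members covered 8 of 14 Eph receptors, 7 of 8 ephrins, 14 of 20 semaphorins, 8 of 11 plexins and neuropilins, 4 of 12 netrins and netrin receptors, and none of the 7 Slits and Robos. The log2 fold change was computed on log2(FPKM + 0.1) and tested with limma over all 15556 genes past the same limit. Of these, 11529 were protein-coding, as all members are, so that the members and all genes tested differ in kind. At a Benjamini-Hochberg adjusted p under 0.05, 7 of the 41 members (17.1%) were higher in shScamp1 cells, against 8.82% of all genes tested, and 3 members (7.32%) were lower, against 5.17% of all genes. With a log2 fold change beyond 1 as a further condition, 4 members were higher and 1 was lower, where the shares among all genes were 2.42% and 0.746%. The 4 were EPHA4, EPHB3, NTN4 and SEMA3E, and the lower gene was SEMA6B. The median log2 fold change of the tested members was 0.05, against -0.02 for all genes, and 23 of the 41 were above 0. Without the shScamp1 replicate 2 library, 11 members (26.8%) were higher, against 14.7% of all genes, and 6 (14.6%) were lower, against 13.2%. All 10 members that passed with 6 libraries were among these 17.

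**Figure D1:**
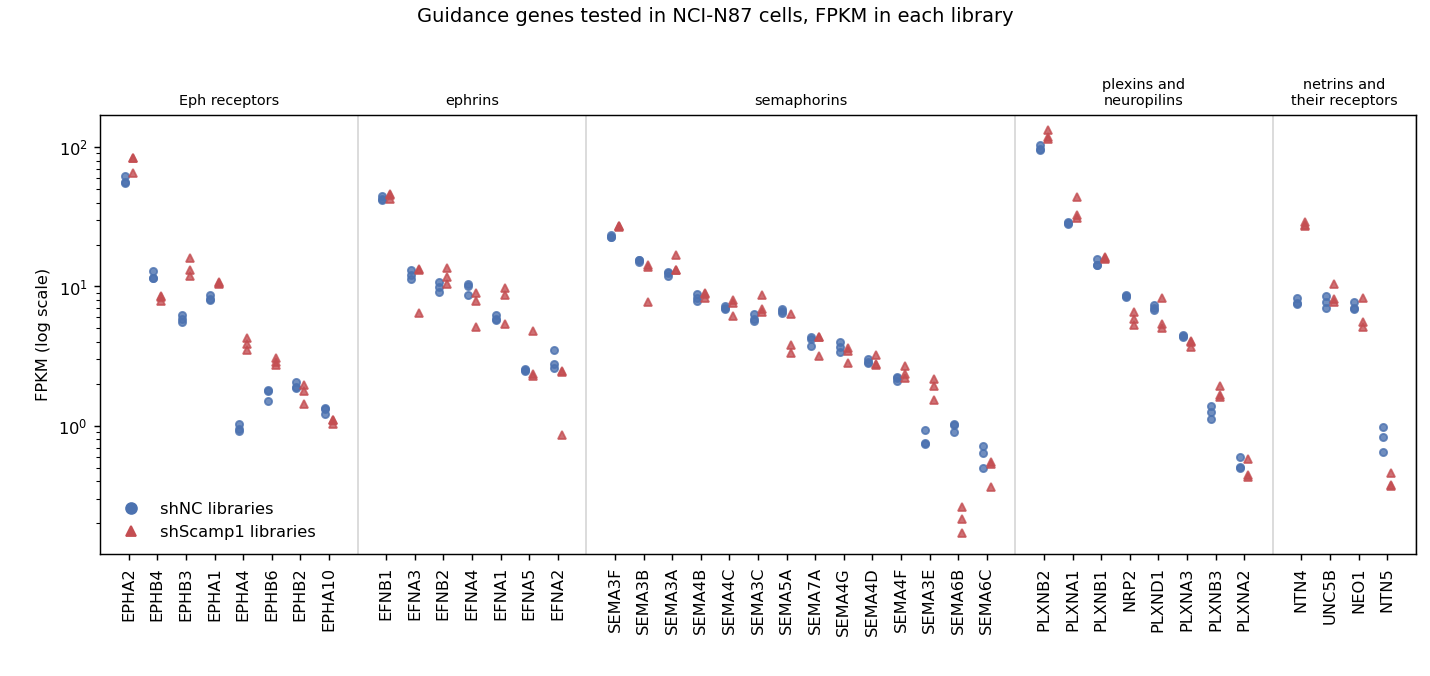
FPKM of the 41 tested guidance genes in each library, on a log axis, grouped by class and ordered by mean level. Circles are shNC and triangles shScamp1 libraries; NTN4, EPHA4, EPHB3 and SEMA3E lie higher and SEMA6B lower in all 3 shScamp1 libraries, and PLXNB2 is the most abundant member.

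**Figure D2:**
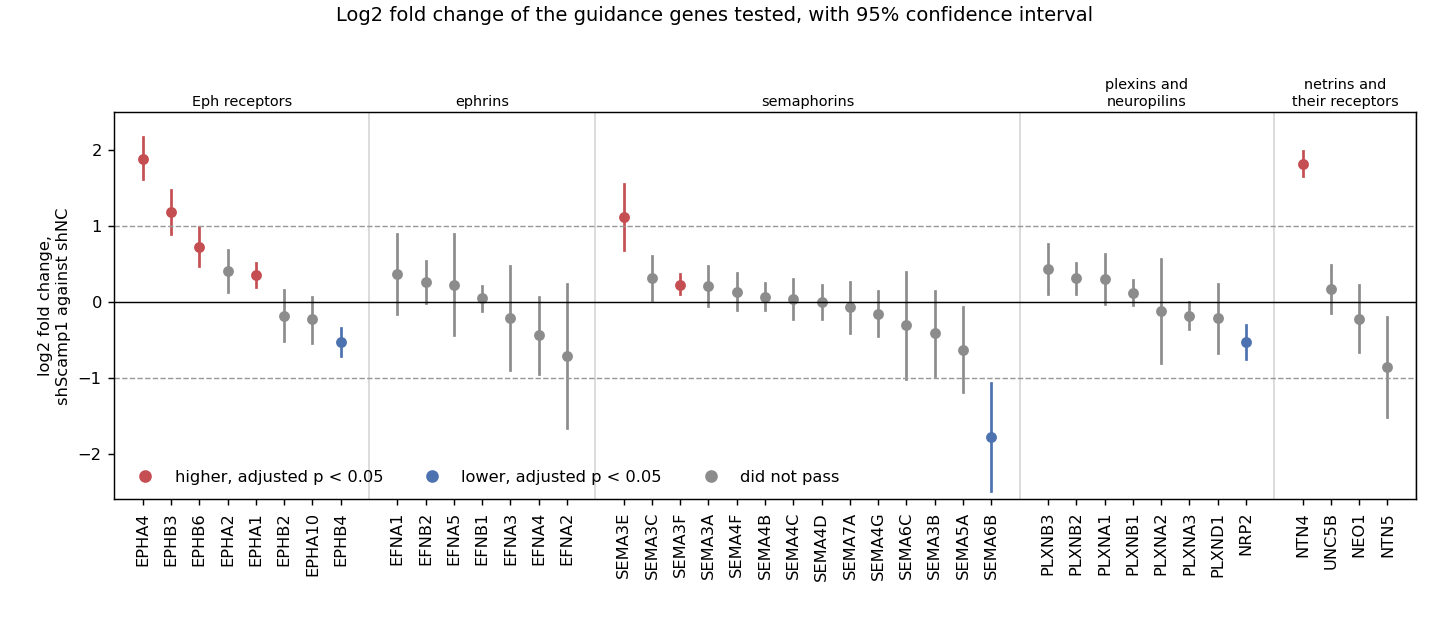
Log2 fold change of each tested guidance gene (shScamp1 against shNC, limma on log2(FPKM + 0.1)) with its 95% confidence interval, grouped by class. Red and blue mark the 7 higher and 3 lower members at an adjusted p under 0.05, grey the other 31, and dashed lines mark log2 fold changes of 1 and -1.

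The sequence before the annotated start of the members that changed most is given for reference. Where their transcription starts in these cells was not measured. The RefSeq table of promoters (GRCh38.p14) held 61 of the 72 members, and 4 of the 5 genes past the fold change threshold; SEMA6B was not among them. The 250 bases upstream of the start site are shown 5′ to 3′ on the strand of the gene, at chr3:184561535-184561784 (forward strand) for EPHB3, chr2:221574203-221574452 (reverse) for EPHA4, chr12:95791156-95791405 (reverse) for NTN4 and chr7:83649140-83649389 (reverse) for SEMA3E. Capitals mark matches on either strand to the letters of 8 motifs, which may overlap each other.
EPHA4: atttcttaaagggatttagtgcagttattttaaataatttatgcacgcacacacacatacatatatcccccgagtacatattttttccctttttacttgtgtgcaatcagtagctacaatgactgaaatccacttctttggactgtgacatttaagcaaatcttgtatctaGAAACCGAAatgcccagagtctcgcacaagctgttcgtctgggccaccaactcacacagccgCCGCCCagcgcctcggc
EPHB3: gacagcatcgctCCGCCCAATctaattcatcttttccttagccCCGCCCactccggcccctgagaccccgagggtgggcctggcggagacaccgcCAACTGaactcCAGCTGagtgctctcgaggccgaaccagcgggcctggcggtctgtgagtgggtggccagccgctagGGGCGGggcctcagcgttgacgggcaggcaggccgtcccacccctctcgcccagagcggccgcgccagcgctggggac
NTN4: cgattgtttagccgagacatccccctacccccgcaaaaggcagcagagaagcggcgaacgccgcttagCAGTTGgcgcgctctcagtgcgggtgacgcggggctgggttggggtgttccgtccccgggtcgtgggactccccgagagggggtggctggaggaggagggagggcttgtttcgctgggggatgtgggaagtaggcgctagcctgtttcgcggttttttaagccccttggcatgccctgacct
SEMA3E: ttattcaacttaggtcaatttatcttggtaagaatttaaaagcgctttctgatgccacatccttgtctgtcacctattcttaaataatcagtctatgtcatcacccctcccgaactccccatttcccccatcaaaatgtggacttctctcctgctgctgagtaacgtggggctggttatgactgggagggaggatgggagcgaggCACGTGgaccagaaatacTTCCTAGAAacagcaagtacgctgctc
The EPHA4 sequence has a GC content of 43.2% and that of SEMA3E of 46.4%, against 70% for EPHB3, 64.4% for NTN4 and a median of 62% for the promoters of protein-coding genes. The GC box (GGGCGG) matched 3 times in EPHB3, once in EPHA4 and not in the other sequences; it was in 86.5% of the 37 tested members with a sequence, in 53.7% of protein-coding promoters and in 42.6% of all promoters. EPHB3 alone of the 4 held a CCAAT box (CCAAT), which was in 32% of all promoters. E-boxes (CANNTG), in 61.8% of all promoters, matched in EPHB3, NTN4 and SEMA3E. The letters GAAANNGAA, the core of the interferon response element, matched in EPHA4 and were in 6.88% of all promoters. Those of a STAT site (TTCNNNGAA) matched in SEMA3E and were in 6.57%. No match to a TATA box (TATAAA, 10.7% of all promoters), an AP-1 site (TGANTCA, 6.57%) or a FOXO site (GTAAACA, 2.98%) lay in these 4 windows. The matches are letters in the sequence, and binding was not measured.

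Among the Eph receptors, 4 of the 8 tested genes were higher (50%, against 8.82% of all genes tested), 1 was lower (12.5%, against 5.17%) and 3 did not pass. EPHA4, which can bind ephrins of both types, rose from the least abundant tested receptor to the fifth of the 8 by mean level. Its transcript was at 0.918, 0.953 and 1.04 FPKM in shNC and 3.49, 4.25 and 3.88 FPKM in shScamp1 libraries (110 to 440 reads), without overlap between the groups. Its log2 fold change was 1.89 (standard error, SE, 0.11; limma adjusted p = 0.00051), with 1.82 and 1.96 as the extremes over fits that omitted 1 library. The gene (ENSG00000116106) lies on chromosome 2 from 221418027 to 221574202, on the reverse strand. EPHB3, a receptor of ephrin-B ligands that positions cells in the intestinal crypt, was at 5.86, 5.56 and 6.26 FPKM in shNC and 11.9, 16 and 13.2 FPKM in shScamp1 libraries. All shScamp1 libraries lay above all shNC libraries, replicate 2 highest. The log2 fold change of EPHB3 (chromosome 3 from 184561784 to 184582409) was 1.19 (SE 0.12, limma adjusted p = 0.00223).

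Increases below the fold change threshold were found for EPHB6 and EPHA1. EPHB6, a receptor without kinase activity, was at 1.52, 1.78 and 1.81 FPKM in shNC and 2.75, 3.05 and 2.88 FPKM in shScamp1 libraries (log2 fold change 0.73, SE 0.11, limma adjusted p = 0.00824). EPHA1 was at 8.02, 8.67 and 8.12 against 10.7, 10.6 and 10.5 FPKM (log2 fold change 0.35, SE 0.06, limma adjusted p = 0.0164). The groups did not overlap for either gene. The EPHA1 call was lost without shNC replicate 1, 2 or 3 (adjusted p 0.091, 0.0594 and 0.0833 by limma) or shScamp1 replicate 3 (0.0675). EPHB4, which binds ephrin-B2, was the 1 tested Eph receptor that passed the threshold as lower, from 11.5, 11.5 and 12.9 FPKM to 7.87, 8.54 and 8.41 FPKM (log2 fold change -0.53, SE 0.08, limma adjusted p = 0.00834). The call for EPHB4 was kept in all 6 fits that left out a library. Exons of EPHA1 and ZYX share 82 bases and those of EPHB4 and SLC12A9 69 bases on opposite strands, and no source used here says whether reads were counted by strand. EPHA4 shares 353 exonic bases with AC079834.2 on the opposite strand. NRP2 shares 147, SEMA3F 110 and SEMA5A 436 with AC007362.1, SEMA3F-AS1 and AC021088.1. These opposite-strand genes had means of at most 0.354 FPKM.

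EPHA2, a receptor of ephrin-A ligands and the most abundant member of the class, did not pass the threshold with 6 libraries. It was at 55.5, 56.1 and 61.6 FPKM in shNC and at 83.1, 65 and 83.5 FPKM in shScamp1 libraries. The groups did not overlap, and shScamp1 replicate 2 lay nearest to the controls. The log2 fold change was 0.41 (SE 0.12, limma adjusted p = 0.065). It was 0.53 without shScamp1 replicate 2 (adjusted p = 0.00204 by limma), and the call was also made by voom on recovered reads (adjusted p = 0.0371) and once GC content and gene length trends were removed (limma adjusted p = 0.00689). Most alternative fits did not call EPHA2. It passed in 4 of 16, and the highest adjusted p was 0.202 by limma. EPHB2 (log2 fold change -0.18, 95% confidence interval -0.52 to 0.16) and EPHA10 (-0.23, -0.54 to 0.07) did not pass. Summed over the class, Eph receptor transcripts amounted to 89.8 ± 4.53 FPKM in shNC and 119 ± 7.75 FPKM in shScamp1 cells (SD, n = 3 each). EPHA2 made up 64.2% ± 0.525 of this sum in shNC and 64.5% ± 4.95 in shScamp1 cells (SD, n = 3 each). The share of EPHB3 was 6.33% to 6.77% in shNC and 9.73% to 14.5% in shScamp1 libraries, and that of EPHB4 was 13.1% to 13.6% and 6.44% to 7.72%. EPHB4 thus ranked above EPHB3 in all shNC libraries and below it in all shScamp1 libraries. EPHB1, EPHA8, EPHA7 and EPHA3 had at most 4 reads in any library. EPHA5 and EPHA6 had none, where a count of 0 allows up to 3 reads per library, at most 0.0348 FPKM for EPHA6.

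The ephrins, the ligands of these receptors, showed no call among 7 tested genes. The count was 0 at an adjusted p by limma, 0 at an unadjusted p under 0.05 and 0 by voom. Of all genes tested, 30.7% had an unadjusted p under 0.05, and voom called 10.4% higher and 7.33% lower. EFNB1, the most abundant ephrin, was at 41.7, 42.4 and 44.9 FPKM in shNC and 45.5, 42.1 and 45.7 FPKM in shScamp1 libraries. The groups overlapped, and the log2 fold change was 0.05 with a 95% confidence interval of -0.12 to 0.21. EFNB2, the ligand of EPHB4, had a log2 fold change of 0.26 (-0.01 to 0.54), and shares 1313 exonic bases with AL138689.2 on the opposite strand. The intervals of the ephrin-A genes were wider, with values of 0.37 (-0.16 to 0.90) for EFNA1, -0.71 (-1.66 to 0.24) for EFNA2, -0.21 (-0.90 to 0.48) for EFNA3, -0.44 (-0.95 to 0.07) for EFNA4 and 0.23 (-0.44 to 0.90) for EFNA5. A change of the size seen for EPHB3 lay outside these intervals as an increase, and as a decrease inside that of EFNA2. Summed ephrin transcripts were at 86.2 ± 4.23 FPKM in shNC and 87.7 ± 6.91 FPKM in shScamp1 cells (SD, n = 3 each). EFNB3 had at most 2 reads in any library.

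**Figure D3:**
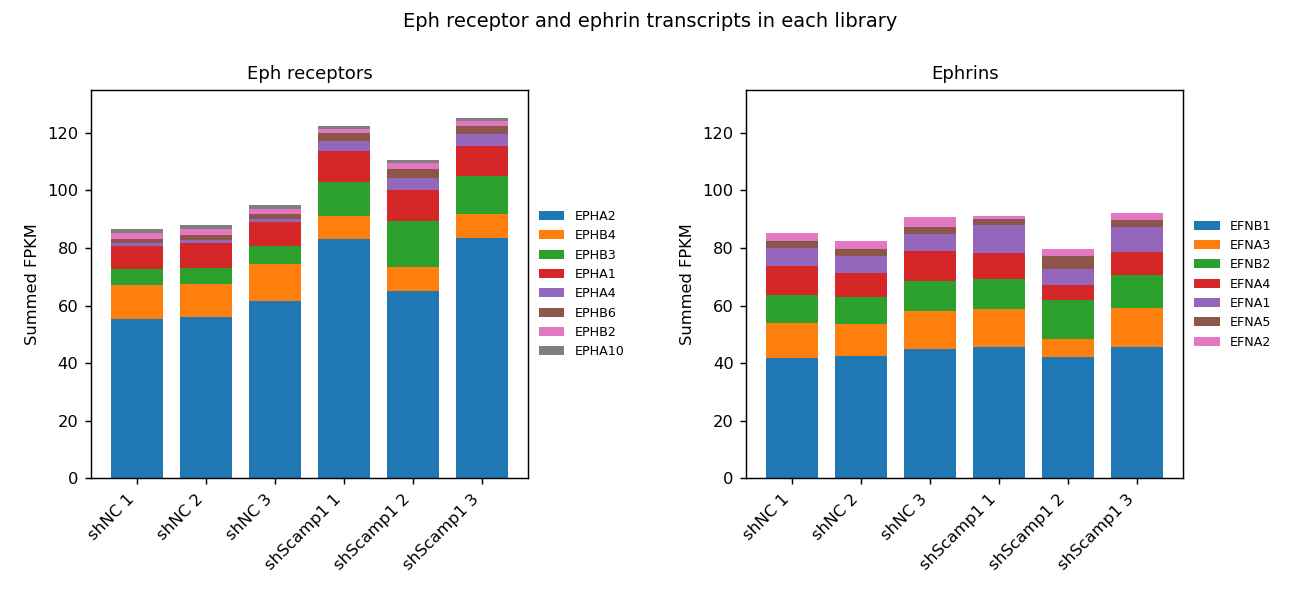
Summed FPKM of the Eph receptors (left) and ephrins (right) in each library, stacked by gene. Eph receptor sums lie at 86.5 to 95 FPKM in shNC and 111 to 125 FPKM in shScamp1 libraries, and ephrin sums at 82.6 to 90.9 and 79.8 to 92.2 FPKM.

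Much of the spread of the ephrin-A genes lay in shScamp1 replicate 2. EFNA4, EFNA3 and EFNA1 lie near each other on chromosome 1, between 155063731 and 155134857. EFNA3 shares 853 exonic bases and EFNA4 189 with AL691442.1 on the same strand, so that their values are uncertain. EFNA3 was at 13.2 and 13.4 FPKM in shScamp1 replicates 1 and 3 and at 6.43 FPKM in replicate 2, with 11.3 to 13.1 FPKM in shNC. EFNA4 was at 8.94 and 7.85 against 5.09 FPKM, and EFNA1 at 9.82 and 8.72 against 5.35 FPKM. All 3 were thus lowest in replicate 2, with a log2 difference from the mean of the other replicates of -1.04 for EFNA3, -0.78 for EFNA1 and -0.71 for EFNA4. EFNA5, on chromosome 5, deviated the other way, at 4.79 FPKM in replicate 2 against 2.29 and 2.36 FPKM. For EFNA2, replicate 1 stood apart instead, at 0.866 FPKM (12 reads) against 2.46 and 2.45 FPKM. Without shScamp1 replicate 2, EFNA1 was higher (log2 fold change 0.63, adjusted p = 0.00334 by limma), and the other ephrins did not pass.

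Across the 41 tested members, 9 lay over 0.5 from the mean of shScamp1 replicates 1 and 3 in replicate 2, on the log2 scale. Besides the ephrin genes EFNA1 to EFNA5 these were SEMA3B, which was lower in replicate 2, and SEMA5A, NEO1 and PLXND1, which were higher. By this limit 12.2% of the members lay above and 9.76% below, against 12.3% and 16.2% of all genes tested. The corresponding counts of members were 0 in the shNC libraries, 5 in shScamp1 replicate 1 and 2 in replicate 3. Measured as an SD, the deviation of the members was 0.44 in shScamp1 replicate 2 and 0.10 to 0.13 in the shNC libraries. Over all genes tested it was 0.71 and 0.53 to 0.54. The fixed limit thus met a wider spread in all genes than in the members, also in the controls. The members that were higher in replicate 2 had a median GC content of 49% and those that were lower of 60% in their longest transcript. Over the 41 members the deviation of replicate 2 had a Pearson correlation of -0.36 with GC content and 0.42 with log2 gene length, given as a description over genes that share the same libraries; over all genes tested the values were -0.14 and -0.00. Whether GC content or length plays a part in these differences was not tested. With trends of this kind removed, 9 members were higher and 4 lower, where 10.7% and 8.19% of all genes tested were called. The members past the fold change threshold lay close to the line of equal change, with a deviation of -0.05 for NTN4, 0.01 for SEMA6B, 0.20 for EPHA4, 0.31 for SEMA3E and 0.35 for EPHB3.

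**Figure D4:**
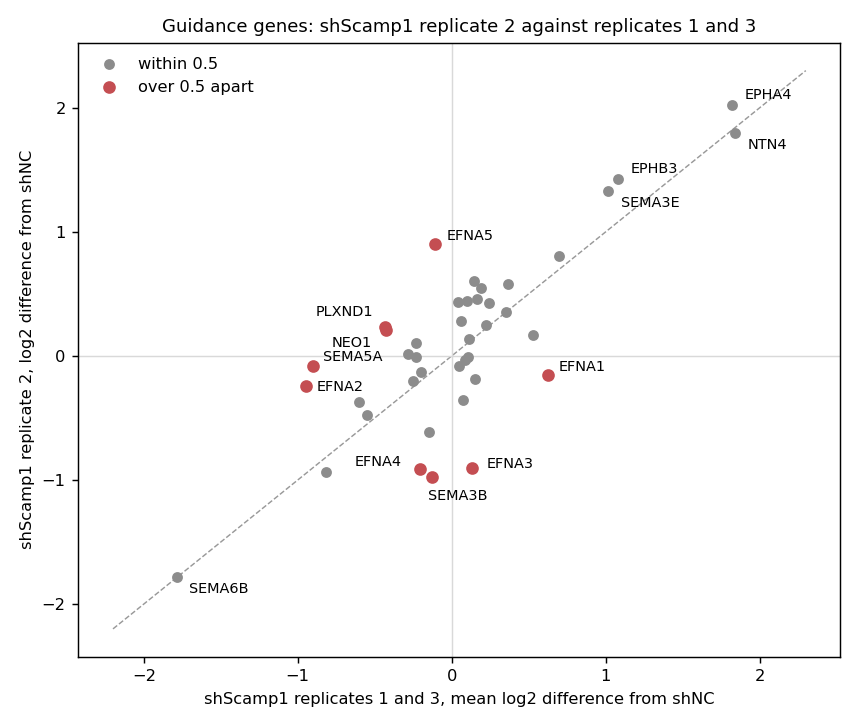
Difference from the shNC mean, on the log2 scale, of each tested guidance gene in shScamp1 replicate 2 (vertical axis) against the mean of shScamp1 replicates 1 and 3 (horizontal axis), with the line of equality dashed. Red marks the 9 genes that differ by over 0.5; NTN4, EPHA4, EPHB3, SEMA3E and SEMA6B lie near the line.

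In the netrin system, NTN4 rose and the other 3 tested genes did not pass. NTN4 encodes netrin-4, a secreted protein of basement membranes that binds laminin. It was at 7.48, 7.65 and 8.28 FPKM in shNC and 29, 27.3 and 27.4 FPKM in shScamp1 libraries, from 494 to 533 reads against 1555 to 1764 reads. The shScamp1 libraries lay close to each other and far above the controls. The log2 fold change was 1.82 (SE 0.07, limma adjusted p = 0.000168) and ranged from 1.80 to 1.87 over fits that omitted 1 library. The gene (ENSG00000074527) lies on chromosome 12 from 95657807 to 95791152, and no exon of another annotated gene overlapped its exons. NTN4 accounted for 31.9% of the summed FPKM of netrins and their receptors in shNC and for 63.3% in shScamp1 cells, and the sum was 24.5 ± 1.97 and 44 ± 2.97 FPKM (SD, n = 3 each).

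The receptors of netrins that were expressed were UNC5B and NEO1. UNC5B was at 7.06 to 8.49 FPKM in shNC and 7.75 to 10.5 FPKM in shScamp1 libraries (log2 fold change 0.17, 95% confidence interval -0.15 to 0.49). NEO1 was at 6.85 to 7.77 FPKM and at 5.52, 8.32 and 5.14 FPKM, with replicate 2 above all controls and the others below them (log2 fold change -0.22, -0.66 to 0.23). Without replicate 2 it was lower, with a log2 fold change of -0.43 (adjusted p = 0.0116 by limma). NTN5 was covered by 16 to 47 reads and was at 0.648, 0.828 and 0.977 FPKM against 0.462, 0.375 and 0.373 FPKM (log2 fold change -0.86, adjusted p = 0.0865 by limma, and adjusted p = 0.0341 by voom). It was called in 2 of 15 alternative fits, and the adjusted p reached 0.253 by limma. DCC, the classical receptor of netrin-1, had no read in any library, which allows up to 0.0167 FPKM. Netrin-1 itself (NTN1) had 7 to 12 reads per library. Of the remaining members of this class, UNC5C had 14 to 31 reads, NTNG2 7 to 17 and NTN3 7 to 21, UNC5A and UNC5D had at most 4, and NTNG1 had none.

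Among the semaphorins, 2 of the 14 tested genes were higher (14.3%), 1 was lower (7.14%) and 11 did not pass. Of all genes tested, 8.82% were higher and 5.17% lower, so that these few calls lie near those shares. SEMA3E encodes a secreted ligand of plexin-D1. It was at 0.756, 0.933 and 0.738 FPKM in shNC and 1.54, 2.18 and 1.94 FPKM in shScamp1 libraries (96 to 251 reads), without overlap. The log2 fold change was 1.12 (SE 0.18, limma adjusted p = 0.0113). Refitted with limma, the adjusted p was 0.0544 without shNC replicate 1, 0.0539 without shNC replicate 3 and 0.0536 without shScamp1 replicate 3. SEMA6B, a transmembrane semaphorin that binds class A plexins, fell from 0.901, 1.02 and 1.03 FPKM to 0.171, 0.215 and 0.263 FPKM. This is from 63 to 75 reads per library to 11 to 17 reads. The mean in shScamp1 cells was 0.22 times that in shNC cells, and the log2 fold change, which the pseudocount shrinks at such levels, was -1.78 (SE 0.29, limma adjusted p = 0.0126). Refitted with limma, it had an adjusted p of 0.0681, 0.0745 and 0.0695 without shNC replicate 1, 2 and 3.

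SEMA3F, a secreted ligand of neuropilin-2 and the most abundant semaphorin, was at 22.6, 23.4 and 22.8 FPKM in shNC and 27, 27.3 and 26.5 FPKM in shScamp1 libraries. The increase was small, and the groups did not overlap (log2 fold change 0.23, SE 0.06, limma adjusted p = 0.0425). The call was lost without any one of the libraries other than shScamp1 replicate 2, with an adjusted p of 0.0845 to 0.175 by limma. It was also lost with equal FPKM sums (limma adjusted p = 0.0679), with no filter (0.0547) and with no variance trend (0.0782). SEMA3B, a secreted semaphorin also encoded on chromosome 3, was at 15 to 15.6 FPKM in shNC and at 14.3, 7.75 and 13.7 FPKM in shScamp1 libraries and did not pass (log2 fold change -0.41, 95% confidence interval -0.97 to 0.14). SEMA5A was at 6.5 to 6.91 FPKM and at 3.31, 6.32 and 3.78 FPKM (log2 fold change -0.63, adjusted p = 0.124 by limma). It was lower without shScamp1 replicate 2 (-0.90, adjusted p = 0.00115 by limma) and once GC content and gene length trends were removed (-0.73, limma adjusted p = 0.0216). SEMA5A was called in 3 of 16 alternative fits, and the adjusted p reached 0.28 by limma. The other 9 semaphorins that did not pass, SEMA3A, SEMA3C, SEMA4B, SEMA4C, SEMA4D, SEMA4F, SEMA4G, SEMA6C and SEMA7A, had log2 fold changes between -0.31 and 0.31. Of these, SEMA4G shares 1170 exonic bases with MRPL43 on the opposite strand, so that its value is uncertain. The sum over the class was 94.3 ± 0.628 FPKM in shNC and 96.7 ± 0.0547 FPKM in shScamp1 cells (SD, n = 3 each). In shScamp1 replicate 2, SEMA3B was lower and SEMA3A, SEMA3C and SEMA5A were higher than in replicates 1 and 3. Such deviations offset each other in the sum, so that its small SD does not show the spread of single genes. Under the expression limit, SEMA4A had 11 to 39 reads per library, SEMA3G 5 to 19 and SEMA6A 12 to 19. SEMA6D and SEMA5B had no read, and SEMA3D had at most 1.

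Of the receptors of semaphorins, the 8 tested plexins and neuropilins held 1 lower gene, NRP2, and 0 higher ones at an adjusted p by limma. Among all genes tested, 5.17% were lower and 8.82% higher. At an unadjusted p under 0.05 there were 2 higher genes, PLXNB2 and PLXNB3, and voom called these 2. Neuropilin-2, a coreceptor of SEMA3F and of vascular endothelial growth factors, was at 8.52, 8.37 and 8.68 FPKM in shNC and 5.27, 6.55 and 5.89 FPKM in shScamp1 libraries. The groups did not overlap (log2 fold change -0.53, SE 0.09, limma adjusted p = 0.0153). Without shNC replicate 1, 2 or 3 or shScamp1 replicate 3 the limma adjusted p was 0.0725, 0.0707, 0.0765 and 0.0622. The log2 fold changes of SEMA3F and NRP2, a ligand and its coreceptor, thus had opposite signs. Both calls were lost in most fits that left out a library. NRP1, with 28 to 63 reads per library, and PLXNC1, with 36 to 81, lay under the expression limit.

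PLXNB2, a receptor of class 4 semaphorins, was the most abundant guidance gene. It was at 95.1, 97.5 and 104 FPKM in shNC and 115, 133 and 119 FPKM in shScamp1 libraries, without overlap. Its log2 fold change of 0.31 (standard error 0.08) had an adjusted p of 0.0594 by limma, 0.0443 by voom, 0.0179 without shScamp1 replicate 2 and 0.0286 once GC content and gene length trends were removed. These 3 were the only calls of PLXNB2 among 16 alternative fits, where the adjusted p reached 0.208 by limma. PLXNA1, the next plexin by level, was at 28.1 to 28.9 FPKM and 30.8 to 43.5 FPKM (log2 fold change 0.30, 95% confidence interval -0.03 to 0.63). PLXND1, the receptor of SEMA3E, was at 6.83 to 7.38 FPKM in shNC and at 5.06, 8.32 and 5.35 FPKM in shScamp1 libraries (log2 fold change -0.21, -0.67 to 0.24), and without replicate 2 it was lower (-0.44, adjusted p = 0.00526 by limma). PLXNB1 (0.12), PLXNB3 (0.44), PLXNA3 (-0.18) and PLXNA2 (-0.12) did not pass. PLXNB3 shares 1432 exonic bases with SRPK3 on the same strand, so that its value is uncertain. PLXNA4, which can bind SEMA6B, had at most 5 reads in any library.

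The Slits and Robos were close to absent from these libraries. SLIT1 had 12 to 32 reads per library, ROBO3 had 2 to 13 and ROBO4 had 2 to 7. SLIT3, ROBO1 and ROBO2 had at most 5 reads in any library and SLIT2 had none. Their summed level was at most 0.4 FPKM in any library.

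Partners that act with or below these receptors were examined with 110 genes from lists written from general knowledge of the pathways, of which 85 were tested. These lists were written with earlier results of these data known. In shScamp1 cells 14 (16.5%) were higher and 2 (2.35%) lower by limma at the same threshold, against 8.82% and 5.17% of all genes tested; their median log2 fold change was 0.14. Without shScamp1 replicate 2 the counts were 29 (34.1%) and 11 (12.9%), against 14.7% and 13.2% of all genes tested. By list, 3 of 21 Eph and ephrin partners were higher and 1 lower, 6 of 19 semaphorin and plexin partners were higher, 2 of 11 netrin partners were higher, 1 of 12 Slit and Robo partners was higher and 1 lower, and 2 of 22 shared GTPases and actin effectors were higher. ABLIM3, an actin-binding protein, rose from a mean of 0.639 ± 0.0803 FPKM to 3.82 ± 0.300 FPKM (± SD of 3 libraries; log2 fold change 2.41, limma adjusted p = 0.00037), and its relative ABLIM1 from 52.2 ± 0.752 to 93.7 ± 22.1 FPKM (0.82, adjusted p = 0.0213). FLRT3, a membrane protein that binds UNC5 and Robo receptors, rose from 3.84 ± 0.174 to 8.12 ± 0.732 FPKM (1.06, adjusted p = 0.00123 by limma). GRB7, an adaptor of receptor tyrosine kinases encoded beside ERBB2, was at 250 ± 2.38 FPKM in shNC and 528 ± 65.5 FPKM in shScamp1 cells (1.07, adjusted p = 0.00227 by limma).

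Smaller increases were found for LIMK2, the kinase that phosphorylates cofilin (log2 fold change 0.69, adjusted p = 0.00162 by limma), for the integrin subunit ITGB1 (0.44, adjusted p = 0.00722) and for the GTPase RHOD (0.51, adjusted p = 0.0121). CHN1, which encodes the Rac GTPase-activating protein chimaerin downstream of EPHA4 in neurons, fell from a mean of 1.27 ± 0.126 FPKM to 0.284 ± 0.113 FPKM (± SD of 3 libraries; log2 fold change -1.87, limma adjusted p = 0.0106). ENAH, an actin regulator that acts below Robo receptors, fell from 5.32 ± 0.185 to 3.71 ± 0.533 FPKM (-0.52, adjusted p = 0.0323 by limma). Leaving out a library ended the calls of CHN1 (3 of 6 fits, each without an shNC library, highest adjusted p 0.0664), RHOD (4 of 6, highest 0.0667), ABLIM1 (4 of 6, highest 0.0909) and ENAH (5 of 6, highest 0.126).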

How the data were processed

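RNA-seq of NCI-N87 cells was available for 3 libraries per group. For each gene, the authors deposited FPKM in every library beside its length and coordinates, which equalled GENCODE 29 (GRCh38) for all 58735 genes. The submitters' processing notes name hg38, HISAT2 2.0.5, featureCounts 1.5.0-p3 and DESeq2 1.20.0; the strand setting is not given in the sources used here. Multiplied by length, 100% of values came out as whole reads (tolerance 0.01), which gave the reads per gene (14311769 to 15988700 per library). This showed that the deposited FPKM carries a size factor per library, so that no further scaling was applied. The factor was 1.02 to 1.03 in shNC and 0.947 to 0.99 in shScamp1 libraries. A higher factor lowers FPKM, so that this scaling differs between the groups. Genes with few reads are the least precise.

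Testing was limited to genes averaging 0.5 FPKM or more and used R 4.3.3 with limma 3.58.1 (lmFit, eBayes with a mean-variance trend) on log2(FPKM + 0.1), with Benjamini-Hochberg adjustment over all 15556 genes. Full values are given for members past a log2 fold change of 1, for the other members that passed, for the most abundant member of each class, and for the 10 partner genes with the smallest p, of which 1 is not reported here; other tested members are named with their values. The members and lists were chosen with earlier results of these data known. Alternatives changed the filter, the pseudocount, the trend or the scaling, used voom on recovered reads (1619 genes higher and 1140 lower), took the replicate number as a block or left out each library; removal of trends with GC content and gene length was added after the data were seen. GC content was that of the longest GENCODE 29 transcript. Plots and tables used Python 3.11.15. No column of values was left out.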

Additional observations from a re-analysis of the deposited data

How the results depend on the processing

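Across 16 alternative fits, 11 of the 23 named member and partner genes kept their direction and their side of an adjusted p of 0.05, and 0 of the 23 turned their direction. SCAMP1 passed in all 16. Leaving out a library gave 4 to 11 higher and 1 to 6 lower members, 3 to 4 and 0 to 1 past the fold change threshold, 6 to 29 higher and 0 to 11 lower partner genes, and a median of 0.03 to 0.08; the highest counts at the adjusted p alone were without shScamp1 replicate 2, and the lowest without an shNC library or, for higher members and partner genes, also without shScamp1 replicate 3. The median was lowest without shScamp1 replicate 1 or 3 and highest without shNC replicate 3. SEMA6B, the lower member past a fold change of 1, was not counted with a pseudocount of 1, a filter of 1 FPKM or the block (0 each, also with the block after removal of trends with GC content and gene length); at 1 FPKM it was not tested. With no filter 8 partner genes were higher and 1 lower, with no trend 9 were higher, with the filter of 1 FPKM 1 was lower, with voom 4 were lower, and with trends removed 6 were lower. The median was 0.03 with no filter, 0.12 with a filter of 1 FPKM, 0.02 with equal FPKM sums and 0.06 with trends removed, with or without the block. For these fits, the share of all genes called is given above only without shScamp1 replicate 2, with voom and with trends removed. The cause of these shifts was not tested.

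Replicate numbers gave no clear pairing of the libraries. Deviations of same-numbered libraries correlated at -0.035, 0.032 and 0.067. The shScamp1 replicates 1 and 2 correlated best with a control of another number, and replicate 3 with the control of its own number. Whether same-numbered libraries shared a batch was not tested. With the replicate number as a block, 5 members were higher and 1 lower, 4 and 0 past the fold change threshold, and 6 partner genes were higher and 0 lower. The share of all genes called with the block is not given here. Depth limits the values of SEMA6B, NTN5 and EFNA2 most among those tested, and those under the expression limit.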

Other observations

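Some guidance genes under the expression limit had values that did not overlap between the groups and were not tested. The share of such genes among all genes is not given here, so that this is a description only. SEMA4A, a class 4 transmembrane semaphorin, was at 0.287, 0.343 and 0.247 FPKM in shNC and 0.191, 0.118 and 0.160 FPKM in shScamp1 libraries (11 to 39 reads). PLXNC1, the plexin that binds SEMA7A, was at 0.517, 0.467 and 0.412 against 0.249, 0.303 and 0.401 FPKM (36 to 81 reads), but its exons overlap those of CEP83, a more abundant gene on the opposite strand. NRP1, the coreceptor of SEMA3A, was at 0.153, 0.214 and 0.230 against 0.232, 0.399 and 0.249 FPKM (28 to 63 reads). NTN3 was at 0.476, 0.332 and 0.684 against 0.310, 0.331 and 0.241 FPKM (7 to 21 reads). The nearest libraries of the groups were almost equal for NTN3 and NRP1 and close for PLXNC1. These genes were chosen after their values were seen.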
